A study of Mus musculus with 14 samples.

Results

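The comparison described here sets motoneurons that lack both genes for microRNA-218 (double knockout, labelled 218DKO) against wild-type (WT) motoneurons. Its members are 8 of the 14 samples in the series: 2 libraries labelled 218DKO and 6 labelled WT, all taken. Both groups came from spinal cords of E12.5 mouse embryos, named by the embryonic day, that carried Hb9::gfp, a green fluorescent reporter under the promoter of the motoneuron gene Mnx1 (Hb9). The cords were dissociated with papain, the GFP-positive cells were collected by fluorescence-activated sorting, and polyadenylated RNA was sequenced. The groups therefore share the reporter, the stage and the sorting gate, and by their labels differ in the miR-218 genes. No litter or batch is named for the libraries, so differences of that kind cannot be told apart from genotype. The labels do not say how many embryos went into a library, whether replicates came from separate embryos or how the deletions were made, so p-values reflect only how far these libraries spread, and some of that spread may be technical.

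A microRNA is a short RNA that guides Argonaute proteins to messenger RNAs, mostly through pairing of its bases 2 to 8, the seed, and lowers their stability and translation. miR-218 is abundant in motoneurons, and its genes, Mir218-1 and Mir218-2, lie in introns of Slit2 and Slit3, which encode secreted axon guidance ligands. Loss of a microRNA can change a cell's RNA both through direct targets and through the programmes downstream of them. The comparison asks which transcripts and transcript forms change when miR-218 is absent.

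The 5p strand is the same in both genes, and the 3p strands differ. The sequences, from RefSeq on GRCm38.p6, are shown because they are what the 218DKO cells lack, with bases 2 to 8 in capitals.
miR-218-5p (both genes): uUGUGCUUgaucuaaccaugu
miR-218-1-3p: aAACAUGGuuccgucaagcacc
miR-218-2-3p: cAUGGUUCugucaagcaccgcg
The 5p strand lies at chr5:48223966-48223986 in Mir218-1 and at chr11:35616840-35616860 in Mir218-2, both on the plus strand.

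Each value is a signal, the authors' abundance per gene or transcript, scaled for transcript length and between libraries. Approximate depth was 7.45 and 15.5 M reads in the 218DKO libraries and 11.9 to 28.6 M in the WT libraries, and 3 reads in a transcript of 2000 bases corresponded to a signal of 0.988 to 3.94. Differences were tested with limma on log2(signal + 1) over 16260 genes whose signal averaged 1 or more, and a gene was called at an adjusted p under 0.05. A log2 difference is 218DKO minus WT on that scale, a fold is the ratio of mean signals, and a list's median is set beside 0.00154, the median log2 difference of all genes. List medians also moved between single WT libraries, each set against the other WT libraries. The SD of that median was 0.20 for microtubule genes, 0.17 for cholesterol genes, 0.13 for the respiratory chain and 0.14 for neuropeptides. It was 0.21 for annexins and S100 proteins and 0.19 for glycolysis. The libraries correlated at 0.979 between the 2 218DKO replicates, at 0.956 to 0.965 between these and WT replicates 1, 5 and 6, and at 0.939 to 0.950 between these and WT replicates 2, 3 and 4, whose ribosomal RNA precursor Rn45s was also higher (10197 to 27943, against 644 to 4275 in the other WT and 1112 and 1647 in the 218DKO libraries).

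The sorted cells carried motoneuron markers in every library. Summed over 12 markers, the signal was 18464 to 22395 in WT and 18542 and 19468 in 218DKO libraries, and the ranges overlapped. Mnx1, Isl1, Chat and Slc5a7, the choline transporter, were not called. Of the 12 markers 2 were higher, Slit2 and Slit3, and 4 lower: Prph, Ret, Lhx3 and Slc18a3, the vesicular acetylcholine transporter. These made up 50% of the markers, against 7.99% of all genes. The sums hold opposite changes. Mean signal was 1801 in WT and 3912 in 218DKO for Slit2, and 607 and 3708 for Slit3. For Prph it was 6226 and 454. Overlap of the sums therefore does not show that single markers were alike. Markers of other cells differed in level. The 19 neural progenitor markers, which include the abundant Vim, summed to 5384 to 6777 in WT and 3315 and 3746 in 218DKO libraries, and 25 cell cycle genes to 1576 to 1937 and to 1766 and 1664. V0 and dorsal interneuron markers summed to 33.6 to 206 in WT and 28.7 and 29.5 in 218DKO libraries. Of the 15, 6 were at 0 in both 218DKO libraries, among them Atoh1 and Pax7, and 0 were at 0 in all WT libraries. Only 12 of the 15 averaged a signal of 1 or more over the 8 libraries, so some zeros lie near the floor. The 10 microglial markers summed to 4.67 to 223 and to 5.36 and 13.3, and the 12 blood markers, which include the globins, to 9.0 to 1676 and to 10.8 and 615, varying as much within as between groups. In bulk samples, fewer cells of a type and less RNA per cell cannot be told apart.

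Of the 16260 genes, 523 were higher (3.22%) and 776 lower (4.77%) in 218DKO motoneurons, 7.99% in all. The 2 groups did not overlap for any of the 1299 called genes, nor for 30.7% of all genes tested. Higher genes made up 40.3% of the calls, and 656 of 1254 (52.3%) when libraries were scaled to equal total signal, which moved the median of all genes to 0.09. Leaving out 1 of the 2 218DKO libraries reduced the calls to 27 higher and 70 lower (without replicate 1) or 29 and 112 (without replicate 2). Among the 184 called genes that a fixed rule selected for naming, 31 were called in all 8 fits that left out 1 library, 34 were called without 218DKO replicate 1 and 42 without replicate 2, and 141 to 179 without 1 WT library. Of the 31, Akr1b3 and Gm5779 are described below only as uncertain values, and the others as called in every such fit. The rest of the 184 lost their call in at least 1 fit.

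**Figure D1:**
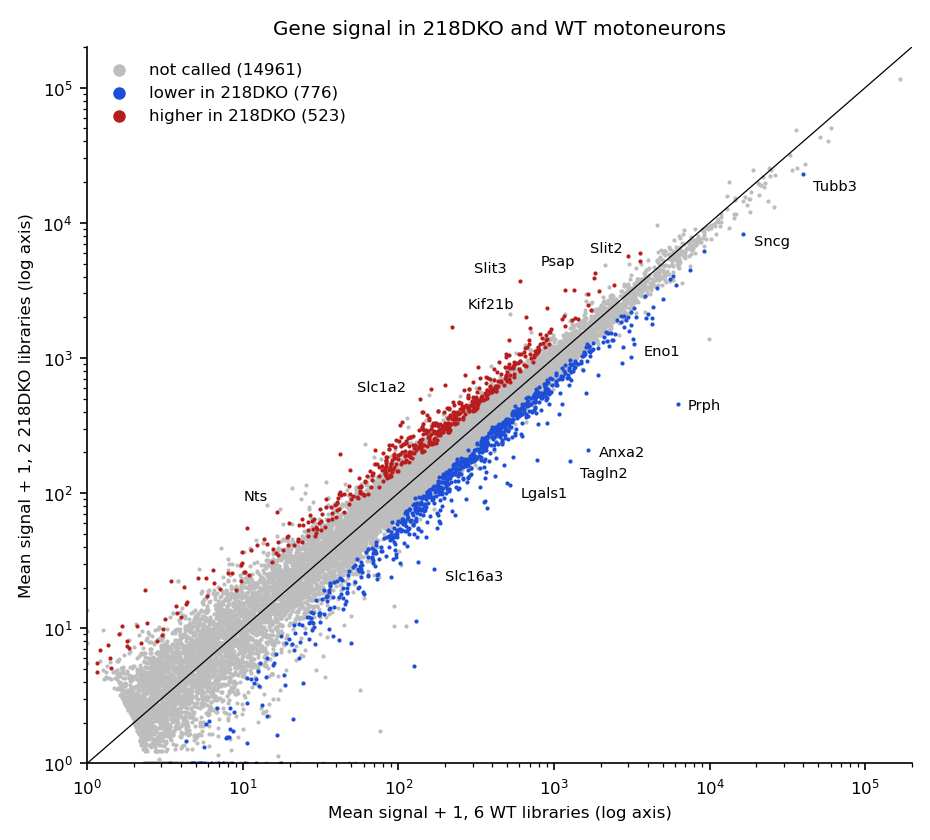
Mean signal + 1 of each tested gene in the 6 WT libraries (x, log axis) against the 2 218DKO libraries (y, log axis), with the line of equality; 776 genes called lower are blue and 523 called higher are red. Prph, Anxa2, Tagln2, Tubb3, Sncg and Eno1 lie below the line at high signal, and Slit3, Slit2, Psap and Kif21b above it.

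Slit3 and Slit2, whose introns hold the deleted genes, were the first check of the labels. The signal of Slit3 was 571 to 694 across the 6 WT libraries, with a median of 589.6, and 3845 and 3571 in 218DKO replicates 1 and 2. Every 218DKO value was far above every WT value (6.11-fold, log2 difference 2.61, SE 0.11, adjusted p = 1.0e-06), and the gene was called in every fit that left out a library. Slit2 had 1344 to 2219, median 1757, in WT and 3929 and 3894 in 218DKO, again without overlap (2.17-fold, log2 difference 1.14, SE 0.18, adjusted p = 0.0057). The tables hold no entry for the microRNAs themselves, so these host messenger RNAs do not check the deletions directly.

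Genes that lie near the deletions were called at 14.3% and 11.4%, against 7.99% of all genes. Within 5 Mb of Slit2, 35 genes were tested and 5 called: Ppargc1a (log2 difference 1.02), a coactivator of mitochondrial genes, and Cpeb2 (0.64), a translational regulator, were higher, and Fam184b (-1.28), the aminopeptidase gene Lap3 (-0.88) and the pteridine reductase gene Qdpr (-0.49) were lower. Within 5 Mb of Slit3, 44 were tested and 5 called. Acyp2 (0.89) and Tenm2 (0.73), the latter 298 kb away and coding for a synaptic adhesion protein, were higher. The kinase gene Stk10 (-0.90), Fgf18 (-1.06) and Sh3pxd2b (-0.48) were lower. Without 218DKO replicate 1, and likewise without replicate 2, 1 of these 79 genes was called. 

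Intermediate filament genes, which build the axon's inner scaffold, held the largest fall among abundant genes. Prph, which encodes peripherin, an intermediate filament of motor and sensory axons, had 4826 to 7874 across the 6 WT libraries, with a median of 6014, and 448 and 459 in 218DKO replicates 1 and 2. Both 218DKO libraries lay far below the lowest WT library (13.7-fold, log2 difference -3.75, SE 0.18, adjusted p = 2.2e-06; called in every fit that left out a library). Nefh, the heavy neurofilament subunit that joins mature axons, had 209 to 334, median 275, in WT and 81.8 and 98.3 in 218DKO (log2 difference -1.57, SE 0.17, adjusted p = 8.8e-04), called in every such fit. Vim, the vimentin of immature cells, had 3601 to 5184, median 4066, in WT and 2150.3 and 1809 in 218DKO (log2 difference -1.11, SE 0.15, adjusted p = 0.0027). The light and medium neurofilament genes Nefl and Nefm, at mean signals of 37435 and 31719, and Ina (15895) were not called (log2 differences -0.56, -0.47 and -0.16). Among the 14 intermediate filament genes tested, 3 fell and 2 rose, Synm and the lamin gene Lmnb1 (0.57; WT replicate 1 stood apart from the other WT libraries), with a median of -0.38. The called share of these 14 genes was 35.7%, against 7.99% of all genes.

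Vim is also a marker of neural progenitors. The sums of the 19 progenitor markers, given above, did not overlap between the groups. Without Vim the other 18 summed to 1256 to 2836 and to 1506 and 1596, so that the groups overlapped. Olig2, which defines motoneuron progenitors, was at 2.29 to 7.86 in WT and 0 and 2.56 in 218DKO libraries. The part of progenitor cells in the fall of Vim was not tested.

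Annexins and S100 proteins, calcium-binding proteins that join membranes to the actin cortex, formed the list with the lowest median among those of the cytoskeleton, -1.24 over 14 tested members. Of these, 8 fell (57.1% called, against 7.99% of all genes) and none rose, and 12 had a log2 difference below 0. Anxa2 had 1224 to 1931 across the 6 WT libraries, with a median of 1695, and 215 and 198 in 218DKO replicates 1 and 2. Its 218DKO values were far below all WT values (8.03-fold, log2 difference -2.98, SE 0.16, adjusted p = 8.5e-06). S100a11 fell 4.84-fold (297 to 454, median 365, in WT and 62.2 and 91.7 in 218DKO), Anxa5 4.27-fold (417 to 584, median 497, in WT and 124 and 109 in 218DKO) and Anxa6 2.81-fold (322 to 425, median 347, in WT and 136 and 119 in 218DKO). Each of these 4 genes was called in every fit that left out a library. S100a10, the partner of annexin A2 in a membrane-bound complex, was chosen for mention after its values were seen, and had 3234 to 5185, median 4203, in WT and 1739.8 and 1814 in 218DKO (log2 difference -1.25, SE 0.18, adjusted p = 0.0035). The other members called were Anxa4, Anxa7 and S100a13. Over the whole list, 4 members fell without 218DKO replicate 1 and 5 without replicate 2.

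Actin regulators fell in 8 of 42 cases and rose in none (median -0.28, 3 and 4 falls without 218DKO replicate 1 or 2). With all 8 libraries 19% of the actin regulators were called, against 7.99% of all genes. Tagln2, an actin-bundling calponin-family protein, had 927 to 1520.2 across the 6 WT libraries, with a median of 1289, and 212 and 129 in 218DKO replicates 1 and 2. Both 218DKO libraries were far below the WT range (7.42-fold, log2 difference -2.90, SE 0.22, adjusted p = 1.2e-04). Gsn, the filament-severing protein gelsolin, had 184 to 288, median 231, in WT and 65.3 and 71.2 in 218DKO (-1.73), and Msn, moesin, which ties actin to the membrane, had 295 to 364, median 336, in WT and 123 and 95.7 in 218DKO (-1.60). These 3 genes were called in every fit that left out a library. Lcp1, an actin bundler otherwise known from white blood cells, was lower at low signal (20.4 to 30.1, median 25.2, in WT and 4.57 and 15.4 in 218DKO). Vcl (vinculin), Zyx (zyxin), Myl12a and Pfn1 (profilin) were the other falls. Rhoc, a small GTPase that acts on the actin cytoskeleton, fell 4.14-fold (278 to 421, median 362, in WT and 76.7 and 95.8 in 218DKO; log2 difference -2.03, SE 0.16, adjusted p = 1.2e-04), Palm3, a membrane-associated paralemmin, 4.17-fold, and Lgals1, the secreted lectin galectin-1, 4.61-fold (361 to 734, median 484, in WT and 97.9 and 128 in 218DKO). All 3 were called in every fit that left out a library.

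**Figure D2:**
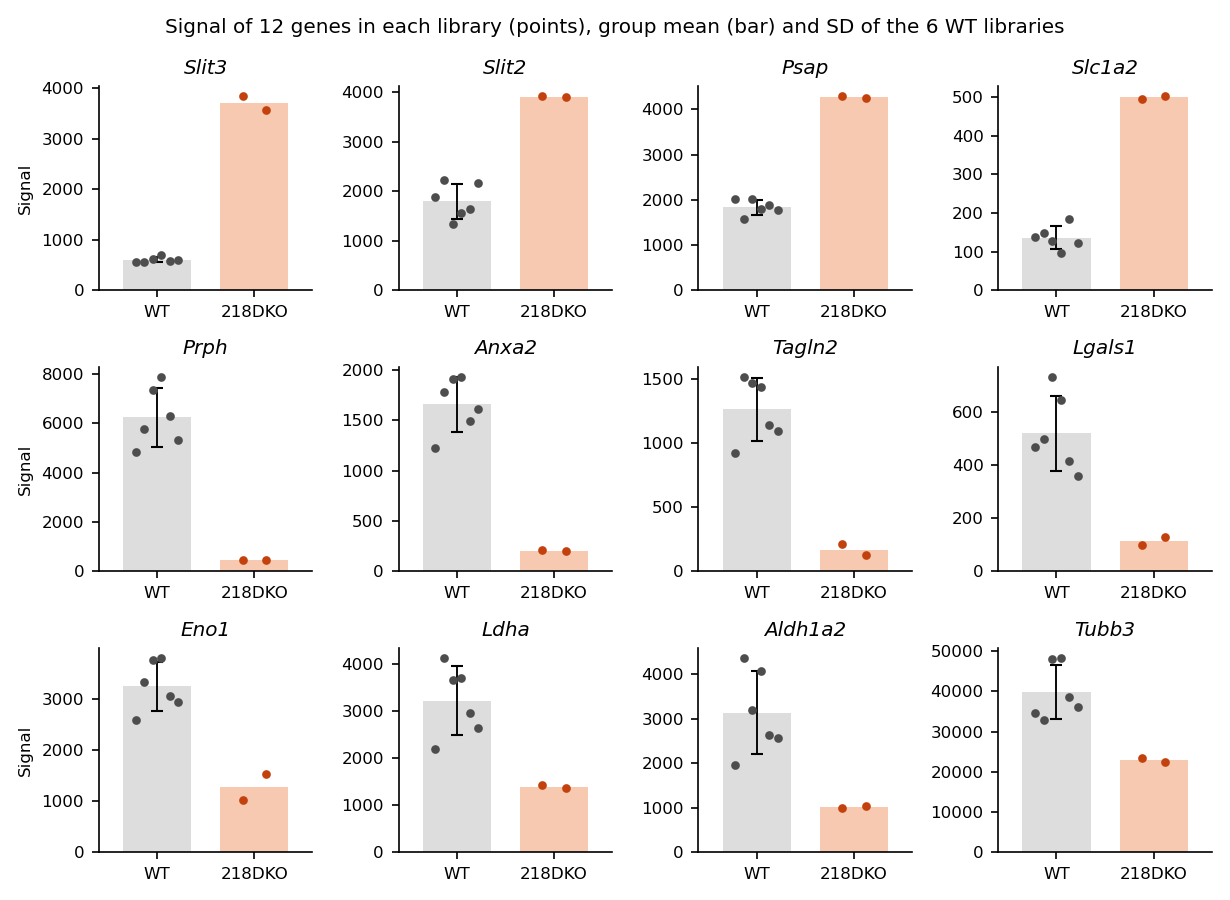
Signal (y, linear axis from 0) of 12 genes in each of the 6 WT (grey) and 2 218DKO (orange) libraries; bars are group means and error bars the SD of the WT libraries. In every panel the 218DKO points lie outside the WT range: above it for Slit3, Slit2, Psap and Slc1a2, and below it for the other 8 genes.

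The promoters of the genes that fell most were read for motifs because these genes moved together. RefSeq's table for GRCm38.p6 gives windows from 250 bases before to 50 bases after each start. It held 11 of the 15 genes with the largest falls and 6 of the 8 called annexin and S100 genes. The searches covered both strands for TATAAA (the TATA box, in 13.6% of all 32851 windows), TGACTCA (the AP-1 site, 5.20%), TGACGTCA (the cyclic AMP response element, 1.79%) and CACGTG (an E-box, 7.15%). Of the 9 called glycolysis genes it held 8. Of the 11 genes, 3 held TATAAA, 2 TGACTCA, 1 CACGTG and 0 TGACGTCA. Of the 6 annexin and S100 genes, 1 held TATAAA, 2 TGACTCA, 2 CACGTG and 0 TGACGTCA. These 2 sets share genes, so their counts are not separate. The TGACTCA genes were Anxa2 and S100a11 in both sets. Anxa2 was also counted for TATAAA, and S100a11 for CACGTG, in both. Of the 8 glycolysis genes, 0 held TATAAA, and 1 held each of TGACTCA, TGACGTCA and CACGTG. The windows below, 30 bases each on the gene's strand, show the motif in capitals; TGAGTCA is TGACTCA read on the other strand.
Prph, chr15:99055131-99055160, 31 bases before the start: agaccgcagggcTATAAAgccgccccgcat
Anxa2, chr9:69453577-69453606, 95 bases before: tccaagttggaTGAGTCAcccagcagggtg
S100a11, chr3:93520349-93520378, 136 bases before: cagagacctgtTGAGTCAcagggactacaa
S100a11, chr3:93520447-93520476, 38 bases before: cgggcacagccTGAGTCAggctgaggggcg
A gene was counted when any of its windows held a motif, whereas the percentages count single windows, so these measures are unlike. A match describes these letters only, and the shares rest on few genes.

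Microtubule genes fell in 7 of 35 cases, again with no rise (median -0.24, 20% called, against 7.99% of all genes). Tubb3, the neuronal beta-tubulin and the most abundant called gene, had 32977 to 48303 across the 6 WT libraries, with a median of 37224, and 23519 and 22542 in 218DKO replicates 1 and 2. Both 218DKO values were below the lowest WT value (1.72-fold, log2 difference -0.77, SE 0.20, adjusted p = 0.039). Tubb4a had 4887 to 7411, median 5706, in WT and 3528 and 3452 in 218DKO (-0.79) and Tubb4b 2043 to 3453, median 2596, in WT and 1162 and 1227 in 218DKO (-1.18). Tppp3, a tubulin-polymerising protein, fell 3-fold (1986 to 3295, median 2815, in WT and 854 and 965 in 218DKO), the only member of the list called in every fit that left out a library. Without 218DKO replicate 1 or 2, 1 member of the list fell. Of the motors, Kif21b, a kinesin that moves along and restrains microtubules, rose 3.03-fold (475 to 874, median 651, in WT and 2059 and 1949.9 in 218DKO; log2 difference 1.63, SE 0.22, adjusted p = 0.0026), Kif24 rose from a low signal and Kif13a fell (-0.54), among 39 kinesins tested. Dynll2, a dynein light chain, rose (3026 to 4333, median 3437, in WT and 5135 and 5267 in 218DKO; 0.55) and Dctn1, the large dynactin subunit, fell (1739 to 2372, median 2114, in WT and 1421 and 1412 in 218DKO; -0.56). Calls made up 7.69% of the kinesins and 9.52% of 21 dynein and dynactin genes, near the 7.99% of all genes.

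Glycolysis was the metabolic programme with the most falls by share. Of 22 tested genes of glucose uptake, glycolysis and lactate handling, 9 fell, none rose and 21 had a log2 difference below 0 (median -0.58). The called share was 40.9%, against 7.99% of all genes. Slc16a3, the lactate exporter MCT4, had 118 to 235 across the 6 WT libraries, with a median of 169, and 27.5 and 25.7 in 218DKO replicates 1 and 2. The 218DKO values lay well below all WT values (6.37-fold, log2 difference -2.59, SE 0.22, adjusted p = 2.4e-04), and the call held in every fit that left out a library. Eno1, the ubiquitous enolase, had 2588 to 3803, median 3199, in WT and 1025 and 1531 in 218DKO (2.54-fold, log2 difference -1.36, SE 0.18, adjusted p = 0.0025). Ldha, lactate dehydrogenase A, had 2204 to 4130.1, median 3305, in WT and 1426 and 1357 in 218DKO (2.31-fold, log2 difference -1.17, SE 0.21, adjusted p = 0.0094). For both genes every 218DKO library was below every WT library.

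Other steps of the pathway were called in part. Aldoc fell 2.4-fold (121 to 189.8, median 158, in WT and 50.6 and 82.2 in 218DKO), and Aldoa, Gpi1, Tpi1, the glucose transporter gene Slc2a3 and Pkm were called at log2 differences of -0.85, -0.84, -0.73, -0.62 and -0.58. Not called were Gapdh (-0.58), Pgk1 (-0.45), Pgam1 (-0.61), the hexokinase gene Hk1 (-0.49), the phosphofructokinase genes Pfkm (-0.33), Pfkl (-0.28) and Pfkp (0.32), and the neuronal enolase gene Eno2 (-0.34). Both 218DKO libraries were below the WT mean for 20 of the 22 genes. For glycolysis and glucose uptake, 12 members fell against WT replicates 1, 5 and 6 alone, 13 against replicates 2, 3 and 4 alone, 1 without 218DKO replicate 1 and 3 without replicate 2.

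**Figure D3:**
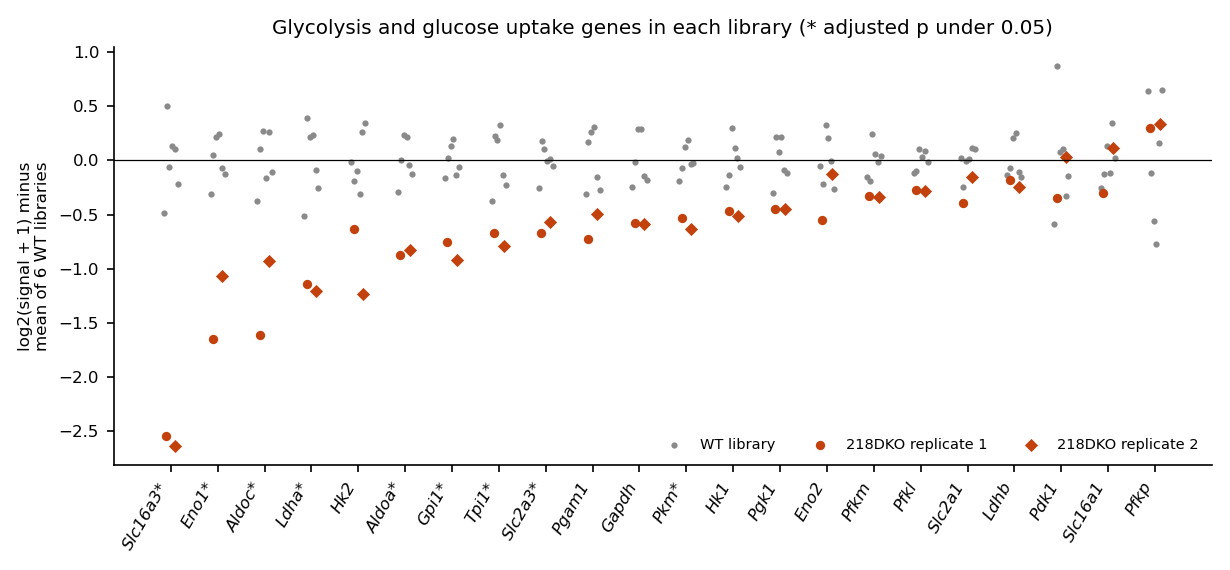
Log2(signal + 1) minus the mean of the 6 WT libraries (y) for 22 glycolysis and glucose uptake genes (x, ordered by the log2 difference); grey points are WT libraries, the orange circle and diamond are 218DKO replicates 1 and 2. The 9 genes with an asterisk were called, from Slc16a3 at -2.59 to Pkm at -0.58, and Pfkp is the 1 gene with a log2 difference above 0.

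Antioxidant and detoxifying enzymes fell in 11 of 32 cases and rose in none (median -0.39, 34.4% called, against 7.99% of all genes). Akr1b8, an aldo-keto reductase, had 189 to 246, median 230.0, in WT and 80.1 and 66.1 in 218DKO (log2 difference -1.58, SE 0.15, adjusted p = 3.3e-04), and was called in every fit that left out a library. Gpx3, a secreted glutathione peroxidase, had 596 to 900.0, median 856, in WT and 299.6 and 347 in 218DKO (-1.27), and Prdx1, a peroxiredoxin, had 988 to 1548, median 1219, in WT and 577 and 681 in 218DKO (-0.98). The 218DKO libraries listed Akr1b3, aldose reductase, at 0 and 20.5, and the WT libraries at 68.6 to 163; this gene has near-identical copies in the genome, and its value is uncertain. Prdx6, Mgst3, Cat, Glrx, Gstm1, Gstp1 and Txn2 completed the falls, while Prdx2, at a mean signal of 11147, Sod1 and Sod2 were not called (-0.09, -0.15 and 0.03). Without 218DKO replicate 1 the antioxidant and detoxifying enzymes held 2 falls, and 4 without replicate 2.

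Lipid genes moved in both directions. Of 25 genes of cholesterol synthesis and uptake, 6 fell and 2 rose (median -0.23, 32% called, against 7.99% of all genes). Srebf2, the transcription factor that drives the pathway, had 1575 to 2144, median 2054, in WT and 1203 and 1185 in 218DKO (-0.67), and Dhcr7, Mvd, Hsd17b7 and Fdps were among the other falls, whereas Sc4mol (0.66) and Sc5d (0.55), which act late in sterol synthesis, rose. No member was called without 218DKO replicate 1 or 2. A further 3 abundant genes of fatty acid supply fell: Acly, ATP citrate lyase (4694 to 6055, median 5659, in WT and 3953 and 3728 in 218DKO; -0.53), the desaturase gene Scd2 (-0.47) and Fabp5, a fatty acid carrier (-0.52). In the peroxisome list 4 of 34 fell and 1 rose (14.7% called, against 7.99% of all genes). Nudt7, a coenzyme A hydrolase, was listed at 0 and 1.22 in 218DKO against 9.78 to 23.3 in WT libraries, and Pex2, needed for peroxisome assembly, rose 2.18-fold (88.6 to 118, median 102, in WT and 213 and 233 in 218DKO). Hadh, a mitochondrial beta-oxidation enzyme, fell 3.88-fold (80.9 to 99.3, median 89.5, in WT and 26.3 and 19.6 in 218DKO) and was called in every fit that left out a library, as was Nudt7.

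Mitochondrial genes gave few calls. Of 89 nuclear genes of the respiratory chain and ATP synthase 2 fell, Ndufa11 (-0.56) and Atp5j2 (-0.51), and none rose (2.25% called, median -0.13). Of 76 mitochondrial ribosomal protein genes 1 fell, Mrpl35 (121 to 201, median 167, in WT and 87.6 and 97.7 in 218DKO). Both shares were below 7.99%. The difference between these lists and glycolysis was not tested.

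Among genes of protein synthesis, 8 of 62 translation factors and their regulators fell, 2 rose and 52 were not called (median -0.19; 16.1% called, against 7.99% of all genes). Eif4ebp1, the repressor of cap-dependent initiation that mTOR phosphorylates, had 31.2 to 43.4, median 37.3, in WT and 7.99 and 7.64 in 218DKO, and was called in every fit that left out a library (log2 difference -2.11, SE 0.22, adjusted p = 7.0e-04). Eif3b (-0.59), the elongation factor kinase gene Eef2k (-0.58) and Eif2b2 (-0.55) also fell. Eif5a2 (1.06) and Eif2ak3, the endoplasmic reticulum stress kinase PERK (0.73), rose. Of the translation factors 1 was called without 218DKO replicate 1 and 1 without replicate 2. Of 82 cytosolic ribosomal protein genes 2 rose (2.44%), Rpl7l1 (0.54) and Rps27. The values of Rps27 (33.1 to 512, median 139.8, in WT and 2260.1 and 1150.0 in 218DKO) and of its near-identical copy Rps27rt, which fell (6021 to 9365, median 7384, in WT and 3846 and 5164 in 218DKO), are uncertain, since reads could be split between them, and the same holds for the rise of the pseudogene Rpl34-ps1. Of 41 proteasome genes 1 fell, Psme3 (-0.48), and of 25 chaperonin and heat shock genes limma called 0 (5 at an unadjusted p under 0.05), with Hspa8 at 21369 to 31154, median 26784, in WT and 22792 and 22711 in 218DKO and Hsp90ab1 at 14191 to 20723, median 18035, in WT and 15046 and 14982 in 218DKO.

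Genes of secretion and of the lysosome gave single large changes. Psap, prosaposin, a lysosomal and secreted precursor protein, had 1579 to 2016 across the 6 WT libraries, with a median of 1835, and 4300.4 and 4258 in 218DKO replicates 1 and 2. Both 218DKO values were far above the highest WT value (2.32-fold, log2 difference 1.22, SE 0.11, adjusted p = 3.3e-04), in every fit that left out a library. Among 48 lysosomal and V-ATPase genes Gla, alpha-galactosidase A, rose (59.5 to 118, median 67.0, in WT and 189 and 206 in 218DKO) and Npc2, a cholesterol carrier, fell (721 to 933, median 803, in WT and 581 and 516 in 218DKO). In the endoplasmic reticulum Sdf2l1 fell 3.2-fold (128 to 173, median 147, in WT and 49.5 and 44.0 in 218DKO), called in every fit that left out a library, and Hyou1 also fell (-0.61), while Dnajb9 rose (0.65). Of 21 genes of this stress list 2 rose and 2 fell (19% called). Of the 48 lysosomal and V-ATPase genes 4.17% were called, against 7.99% of all genes.

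Single genes outside the groups above and below completed the largest and the most abundant changes. Cetn2, centrin of the centrosome, had 102 to 179.9, median 141, in WT and 389.8 and 398 in 218DKO (2.8-fold). Both 218DKO values were above the WT range, and the call held in every fit that left out a library, as did that of 2510009E07Rik (1.65). Itm2c, an integral membrane protein, rose 3.19-fold, Syt13, an atypical synaptotagmin, 2.97-fold, the protease gene Prss35 3.09-fold and the plasminogen receptor gene Plgrkt 2.76-fold. Snhg7, a noncoding host of small nucleolar RNAs, rose 3.19-fold. Plp2, a proteolipid of membranes, fell 4.43-fold (111 to 170.0, median 129, in WT and 33.0 and 27.3 in 218DKO), and Pnp, a purine salvage enzyme, 3.45-fold (94.2 to 117, median 97.8, in WT and 23.1 and 35.7 in 218DKO), both in every fit that left out a library. Gm5779 fell from a median of 109 to 5.76 and 2.75, and Gm20594 rose, but reads of both could be shared with copies, and their values are uncertain. Among the abundant genes, Sncg, gamma-synuclein, had 12700.2 to 22027, median 16252, in WT and 8445 and 8174 in 218DKO (log2 difference -0.96, SE 0.21, adjusted p = 0.019), and the membrane protein genes Tmem130 (0.69) and Tspan3 (0.57) rose. In the amino acid response list of 27, Asns, asparagine synthetase (-0.67), and Wars, a transfer RNA synthetase (-0.63), fell and Chac1, which breaks down glutathione, rose (0.93). This list had 11.1% called, against 7.99% of all genes.

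**Figure D4:**
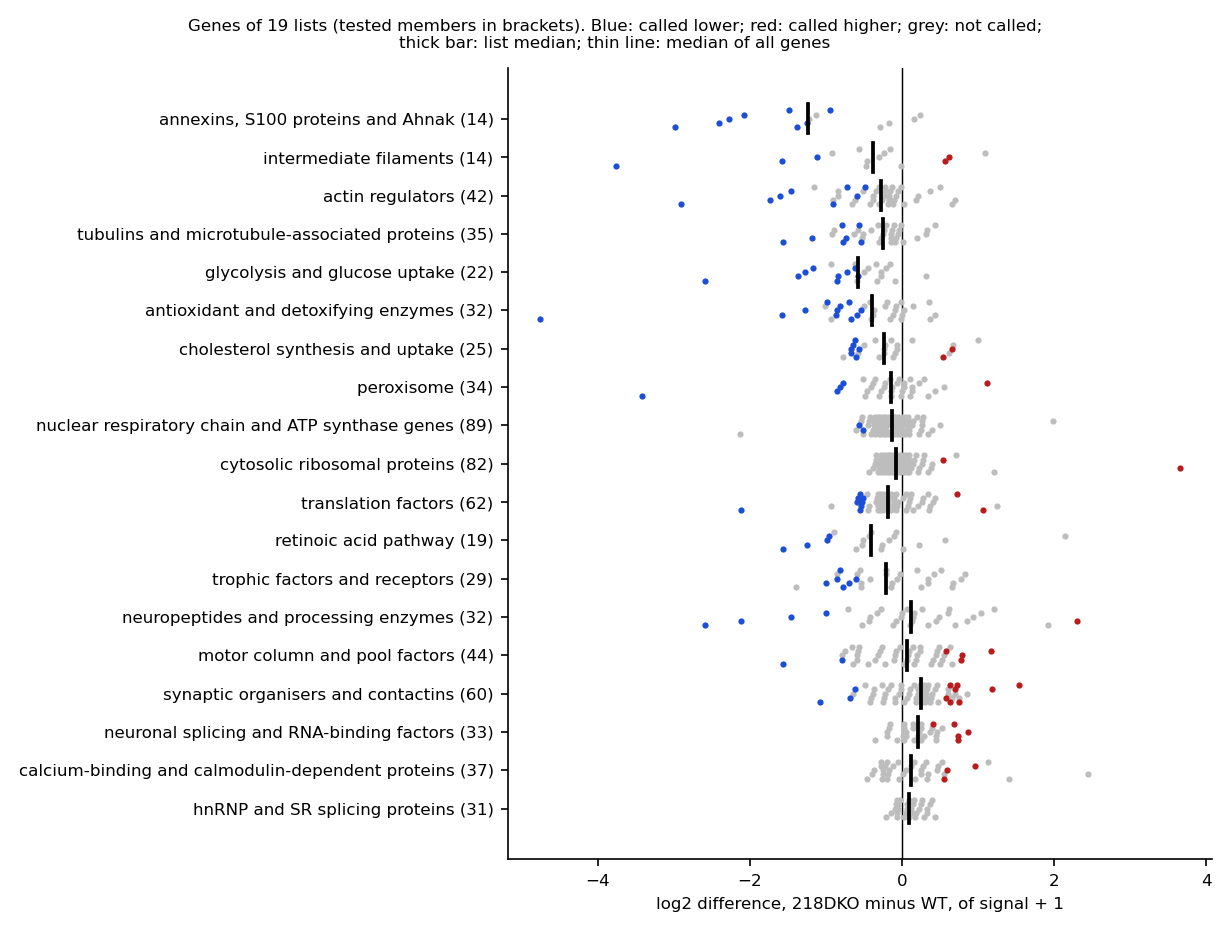
Log2 difference (x) of the tested genes in 19 lists (rows, with the number tested); blue points were called lower, red points higher and grey points neither, the thick bar is the list median and the thin line the median of all genes. Annexins and S100 proteins, glycolysis, antioxidant enzymes and the retinoic acid pathway lie to the left, at medians from -1.24 to -0.39, and synaptic organisers (0.25) and neuronal RNA-binding factors (0.21) to the right.

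Retinoic acid, made by motoneurons of limb levels themselves, regulates motor column identity. Of 19 pathway genes 4 fell and none rose (median -0.40, 21% called, against 7.99% of all genes). Aldh1a2, the enzyme that makes retinoic acid in motoneurons, had 1958 to 4373 across the 6 WT libraries, with a median of 2921, and 989 and 1050.2 in 218DKO replicates 1 and 2. The WT libraries spread widely, and both 218DKO values were below the lowest of them (3.07-fold, log2 difference -1.57, SE 0.26, adjusted p = 0.0069). Crabp2, which carries retinoic acid to the nucleus, had 2768 to 4753, median 3806, in WT and 2005 and 1916 in 218DKO (-0.96). The catabolic enzyme gene Cyp26b1 (-0.98) and Dhrs3, which returns retinal to retinol (-1.25), also fell. The receptor genes Rara, Rarb and Rarg were not called (-0.43, -0.26 and -0.90), nor was Crabp1 (0.57). None of the 4 calls held without 218DKO replicate 1 or 2.

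Trophic signalling genes fell in 6 of 29 cases and rose in none (median -0.20), a set made of receptors and 1 ligand. The called share was 20.7%, against 7.99% of all genes. Ngfr, the p75 neurotrophin receptor, had 4003 to 6427, median 4689.6, in WT and 2958 and 2544 in 218DKO (log2 difference -0.86, SE 0.18, adjusted p = 0.016). Ret, the GDNF receptor kinase of motoneurons, had 979.9 to 1418, median 1265, in WT and 704 and 705 in 218DKO (log2 difference -0.82, SE 0.13, adjusted p = 0.0067). Il6st, Lifr and Cntfr encode the subunits of the receptor for ciliary neurotrophic factor. They fell by 0.77, 0.69 and 0.60 on the log2 scale. Stat3, which transmits their signal, fell as well (581 to 772, median 653, in WT and 390.3 and 380.3 in 218DKO; -0.77). Ntf3, neurotrophin-3, was the ligand (347 to 722, median 583, in WT and 327 and 232 in 218DKO; -0.99), and Gfra1, Ntrk2, Ntrk3 and Met were not called (-0.06, 0.25, 0.68 and -0.13). None of the 6 trophic calls held without 218DKO replicate 1 or 2.

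Kinase and second messenger genes were mixed. In the FGF and MAP kinase list of 33 genes, Mapk3 (ERK1) fell (2022 to 2769.8, median 2382, in WT and 1405 and 1306 in 218DKO; -0.81) with its upstream kinase gene Map2k1 (-0.75), Fgf11 (-0.93) and Spred3 (-0.43), while Fgfr2 rose 2.31-fold (30.3 to 55.5, median 40.3, in WT and 99.4 and 92.6 in 218DKO) and Fgf12 rose (0.79; WT replicate 2 was high). In the BMP and TGF-beta list of 40, Smad3 (-0.75), Bmpr1a (-0.64; WT replicate 2 was high) and Acvr1b (-0.46) fell and Bmpr2 (0.68) and Skil (0.64) rose. Rgs8 and Rgs17, which speed the shut-off of G protein signals, rose 2.53-fold (84.8 to 128, median 95.2, in WT and 264 and 255 in 218DKO) and 2.23-fold, and Rgs10 fell (-0.60). Gng3, a neuronal G protein gamma subunit, rose 1.8-fold (1526 to 1758, median 1679, in WT and 2947 and 3022 in 218DKO; log2 difference 0.85, SE 0.10, adjusted p = 0.0011), in every fit that left out a library. Pde1c (1.20) and Pde4d (0.63) rose and Pde2a (-0.91) fell among 20 phosphodiesterases. Of 37 calcium-binding and calmodulin-dependent proteins 8.11% were called, near the 7.99% of all genes. These were 3 rises, the kinase genes Camk4 (0.96), Camkk2 (0.59; WT replicate 2 was low) and Camk2d (0.55).

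Genes for cell contact and synapse assembly rose more often than they fell. Of 60 synaptic organisers and contactins 8 rose and 3 fell (median 0.25; 18.3% called, against 7.99% of all genes). Chl1, an adhesion protein of the L1 family, had 158 to 386 across the 6 WT libraries, with a median of 259, and 688 and 814 in 218DKO replicates 1 and 2. Both 218DKO values were above the highest WT value (2.82-fold, log2 difference 1.54, SE 0.26, adjusted p = 0.0076). Flrt3 had 105 to 221, median 156, in WT and 352 and 343 in 218DKO (1.18), and Nrxn3, Cntnap2, Cntnap5b, Tenm2 and Tenm3 rose by 0.58 to 0.75 on the log2 scale. The falls were Lrfn2 (151 to 249, median 186, in WT and 92.2 and 89.1 in 218DKO), Lrfn3 (-0.68) and Slitrk1 (-0.62), postsynaptic leucine-rich repeat proteins. Islr2, an abundant axonal protein with such repeats, rose 1.89-fold (2498 to 3693, median 2895, in WT and 6084 and 5218 in 218DKO; log2 difference 0.93, SE 0.16, adjusted p = 0.0079). Without 218DKO replicate 1 or 2 none of the 60 synaptic organisers and contactins was called. Slc1a2, which takes up glutamate, also rose 3.66-fold (97.9 to 185, median 132, in WT and 495 and 503 in 218DKO; log2 difference 1.89, SE 0.20, adjusted p = 6.8e-04; called in every fit that left out a library).

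Of the other surface and matrix genes, 3.51% of clustered protocadherins, 10.3% of other cadherins, 4.55% of integrins and 7.69% of matrix genes were called, against 7.99% of all genes. Among 57 clustered protocadherins 2 rose, Pcdhgc5 and Pcdhgc4 (175 to 255, median 233, in WT and 355 and 397 in 218DKO), and none fell. Cdh22 (-0.97), Pcdh1 (-0.75) and Cdh6 (-0.63) fell and Pcdh15 (1.11) rose among 39 other cadherins. Itgb1, the common beta-1 integrin subunit, had 862 to 1424, median 1062, in WT and 518 and 576 in 218DKO (-0.98), the 1 call among 22 integrins. In the matrix list of 52, Reln, the secreted guidance protein reelin, rose (204 to 389.7, median 265, in WT and 517 and 545 in 218DKO; 0.96) and Thbs1 rose from a low signal (log2 difference 2.11; WT replicate 4 was low), and Col6a2 (-1.31) and Nid1 (-1.44) fell. With WT replicates 1, 5 and 6 alone 1 matrix gene rose and 11 fell, and with WT replicates 2, 3 and 4 alone 7 rose and 1 fell. The counts for extracellular matrix therefore turn with the WT libraries used. Mesenchymal markers summed to 66.0 to 211 in WT replicates 1, 5 and 6, and to 17.9 to 22.8 in WT replicates 2, 3 and 4, and to 20.1 and 10.2 in the 218DKO libraries.

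Of 32 genes of neuropeptides and their processing enzymes, 4 fell and 1 rose, while 19 had a difference above 0 (median 0.12; 15.6% called, against 7.99% of all genes). The counts were 3 rises and 4 falls with a pseudocount of 10, and 6 and 7 with sample quality weights. Uts2b, the motoneuron peptide urotensin 2B, had 566 to 1103 across the 6 WT libraries, with a median of 767, and 166 and 184 in 218DKO replicates 1 and 2. Both 218DKO values were below the lowest WT value (4.45-fold, log2 difference -2.11, SE 0.21, adjusted p = 5.3e-04), in every fit that left out a library. Calcb, beta-CGRP, which acts at the neuromuscular junction, had 30.2 to 51.8, median 38.7, in WT and 2.71 and 11.7 in 218DKO (log2 difference -2.58, SE 0.40, adjusted p = 0.0052), while Calca, alpha-CGRP, was not called (0.48). Grp fell 2.83-fold (78.2 to 173, median 136, in WT and 55.4 and 37.7 in 218DKO) and Npy 1.91-fold (517 to 883, median 562, in WT and 211 and 442 in 218DKO). Nts, neurotensin, rose 4.64-fold from low values (4.73 to 33.1, median 13.8, in WT and 48.7 and 95.3 in 218DKO). Of the 4 falls, 1 held without 218DKO replicate 1 and 3 without replicate 2. Of 17 nerve-to-muscle signals 3 fell, Calcb, Wnt11 (-0.93) and Ache, acetylcholinesterase (718 to 1083, median 905, in WT and 496 and 517 in 218DKO; -0.81), and Nrg3 rose (0.73). Agrn, which clusters muscle acetylcholine receptors, was not called (-0.03). The called share of the 17 nerve-to-muscle signals was 23.5%.

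Of 44 transcription factors of motor columns and pools, 4 rose and 2 fell (median 0.07; 13.6% called, against 7.99% of all genes). Lhx3, of medial motor column neurons, had 503 to 923, median 782, in WT and 469.6 and 388 in 218DKO (log2 difference -0.79, SE 0.20, adjusted p = 0.035), and Runx1 fell at a low signal. Foxp2 had 157 to 354, median 247, in WT and 575 and 575 in 218DKO (log2 difference 1.18, SE 0.25, adjusted p = 0.018), and Ebf1 (0.57) and Ebf2 (0.79) rose. Foxp1, of limb-innervating neurons, Etv4, of motor pools, and Lhx1 were not called (-0.59, -0.78 and -0.09), nor were Isl1 (0.20) and Mnx1 (0.41). No member was called without 218DKO replicate 1 or 2. The sums of V2 interneuron markers, whose lineage also uses Lhx3, and of V3 interneuron markers were 15.2 to 159 and 87.6 to 255 in WT and 16.7 to 32.9 and 252 to 266 in 218DKO libraries. The V1 interneuron markers summed to 220 to 638 in WT and 474 and 483 in 218DKO libraries, and the ranges overlapped. Whether the rise of Foxp2 lay in motoneurons or in other sorted cells was not tested. The sensory neuron markers summed to 213 to 409 and to 433 and 496, which did not overlap. Of these Neurod1, also used by spinal neurons, rose (122 to 239.9, median 170.4, in WT and 342 and 314 in 218DKO). Schwann cell and neural crest markers summed to 219 to 469 in WT and 525 and 529 in 218DKO libraries. The largest share was that of Foxd3, which V1 interneurons also express (93.0 to 304, median 186, in WT and 382 and 384 in 218DKO; not called). Cdh19 was at 0 in both 218DKO libraries. Of the 7 Schwann cell and neural crest markers, 5 averaged a signal of 1 or more, and 1 was at 0 in all WT libraries.

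Several RNA-binding regulators of neurons rose. Of 33 neuronal splicing and RNA-binding factors 5 rose (15.2%, against 7.99% of all genes called in either direction), none fell and 27 had a log2 difference above 0 (median 0.21). Celf4, which binds many synaptic messenger RNAs, had 839 to 1047 across the 6 WT libraries, with a median of 908, and 1536 and 1553 in 218DKO replicates 1 and 2. Its 218DKO values were above the WT range (1.67-fold, log2 difference 0.74, SE 0.10, adjusted p = 0.0033). Celf2 (77.4 to 104, median 86.5, in WT and 163 and 162 in 218DKO; 0.87), Celf6 (174 to 208, median 184, in WT and 332 and 298 in 218DKO; 0.74), Pum2, a Pumilio repressor (513 to 648, median 535, in WT and 847 and 933 in 218DKO; 0.68), and Rbfox2 (1595 to 1954, median 1679, in WT and 2248 and 2308 in 218DKO; 0.40) also rose. Ptbp2 and Nova1 were not called (0.46 and 0.40), nor were Elavl3, Elavl4 and Rbfox3 (-0.19, 0.03 and -0.20). The general splicing proteins of the hnRNP and SR families gave 0 calls of 31 with limma, with Hnrnpk at 6700.3 to 8401, median 7145, in WT and 7162 and 7198 in 218DKO and Hnrnpa2b1 at 4441 to 6576, median 5601, in WT and 6406 and 6419 in 218DKO; 5 of the 31 had an unadjusted p under 0.05, and with sample quality weights 5 rose. No member of the neuronal list was called without 218DKO replicate 1 or 2.

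Chromatin regulators gave calls in both directions. Calls made up 10% of 30 Polycomb genes and 3.19% of 345 numbered zinc finger genes, against 7.99% of all genes. Bmi1, a subunit of Polycomb repressive complex 1, had 230.0 to 331, median 291, in WT and 573 and 599 in 218DKO (2.07-fold, log2 difference 1.06, SE 0.15, adjusted p = 0.0033), and its partner gene Phc3 rose (0.84), whereas Cbx2, of the same complex, fell (-0.72; WT replicate 1 was high), among 30 Polycomb genes. Hmgn2, a nucleosome-binding protein, rose 1.42-fold (2298 to 2590.4, median 2443, in WT and 3187 and 3772 in 218DKO). Of 345 numbered zinc finger genes 8 rose and 3 fell, 3.19% in all. Zfp558 rose 2.49-fold (122 to 175, median 155, in WT and 368 and 390.2 in 218DKO; log2 difference 1.32, SE 0.15, adjusted p = 9.7e-04), in every fit that left out a library, and Zfp516 fell (143 to 147, median 144, in WT and 85.7 and 71.6 in 218DKO).

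Cell death genes were called at 8.82% and p53 targets at 13.3%, against 7.99% of all genes. Of 34 cell death genes 3 fell, Casp6 (-0.97), Tradd (-0.87) and Dffa (-0.77), and none rose. Of 30 p53 targets Cdkn1a (-0.74; WT replicate 3 was high), Zmat3 (-0.54) and Trp53 itself (368 to 467, median 426, in WT and 279 and 309 in 218DKO; -0.52) fell, and Plk2 rose 2.15-fold (335 to 696, median 457, in WT and 1111 and 1009 in 218DKO). Of 22 interferon response genes 0 were called with limma (4 at an unadjusted p under 0.05; 1 rose and 2 fell with sample quality weights), with a median of 0.38, and of 31 immediate early genes, which tissue dissociation also induces, 1 rose, Nr4a2 (446 to 1105, median 653, in WT and 1420.0 and 1285 in 218DKO). The median of that list, 0.59, was smaller than 1.08, the SD of the same median over single WT libraries, each against the other WT libraries. Cell cycle genes fell in 4 of 25 cases (16% called), among them Top2a (-2.63) and Mcm2 (86.1 to 118, median 94.0, in WT and 52.7 and 44.5 in 218DKO).

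Genes with the longest transcripts had a higher median difference than the rest. When 15809 genes were split into 5 groups of nearly equal size by annotated length, the median log2 difference was -0.02 in each of the 4 shorter groups and 0.08 in the longest, whose median length was 6373 bases. The longest group had 184 higher and 112 lower calls, and the shortest 66 and 157. For the longest group the median was 0.07 in 218DKO replicate 1 and 0.09 in replicate 2, and single WT libraries against the other WT libraries ranged from -0.06 to 0.08. The part of transcript length in the list counts above was not tested.

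At the level of single transcripts, 21820 were tested. Of these 242 were higher (1.11%) and 454 lower (2.08%), 3.19% in all. Among 9470 transcripts of genes with several, 262 were called, 133 of them with their gene in the same direction, 128 where the gene as a whole was not called (85 lower and 43 higher) and 1 against its gene. The ratio of a transcript to the other transcripts of its gene was tested where both averaged a signal of at least 10. Of 6115 such transcripts from 2480 genes, 54 were called (0.883%), 16 with a higher and 38 with a lower share, in 41 genes. For 34 of these genes the gene's own level was not called. The split of a gene's signal between transcripts is the authors' estimate, and of the 54 called transcripts 26 were listed at 0 in both 218DKO libraries, where a failed estimate and absence cannot be told apart.

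Pkm, pyruvate kinase of muscle and brain, has mutually exclusive exons that give the M1 form, typical of differentiated cells, and the M2 form, typical of proliferating cells. The transcript with the M2 exon had 2555 to 3717 across the 6 WT libraries, with a median of 2793, and 727 and 708 in 218DKO replicates 1 and 2. The M2 values of both 218DKO libraries were far below the lowest WT value (4.1-fold, log2 difference -2.02, SE 0.14, adjusted p = 5.6e-04; called in all 8 fits that left out a library). The transcript with the M1 exon had 5534 to 7131, median 6266, in WT and 5659 and 5258 in 218DKO and was not called (log2 difference -0.21, SE 0.11, adjusted p = 0.34). The M1 form thus made up 64.7% to 70.9% of the gene in WT and 88.6% and 88.1% in 218DKO libraries. In the ratio test the log2 ratio of M1 to M2 rose by 1.81 (SE 0.24, adjusted p = 0.017), and the same contrast read from M2, whose variance prior differs, had an adjusted p of 0.055. The fall of Pkm among the glycolysis genes was thus mostly a fall of its M2 form.

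The exons, both inside the coding sequence and 167 bases long, are shown because they are what distinguishes the forms. The 64 bases that differ between them are in capitals, and 61.7% are the same. They are GENCODE M21 sequence on GRCm38, plus strand.
Pkm M1 exon, chr9:59675029-59675195: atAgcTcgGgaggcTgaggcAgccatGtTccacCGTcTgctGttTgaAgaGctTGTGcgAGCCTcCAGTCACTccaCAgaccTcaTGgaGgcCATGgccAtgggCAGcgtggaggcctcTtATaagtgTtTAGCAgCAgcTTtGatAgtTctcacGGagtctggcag
Pkm M2 exon, chr9:59675568-59675734: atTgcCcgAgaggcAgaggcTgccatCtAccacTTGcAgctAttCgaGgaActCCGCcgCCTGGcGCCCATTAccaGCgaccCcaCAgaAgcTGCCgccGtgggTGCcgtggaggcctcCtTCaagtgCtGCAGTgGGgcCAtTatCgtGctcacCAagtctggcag

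**Figure D5:**
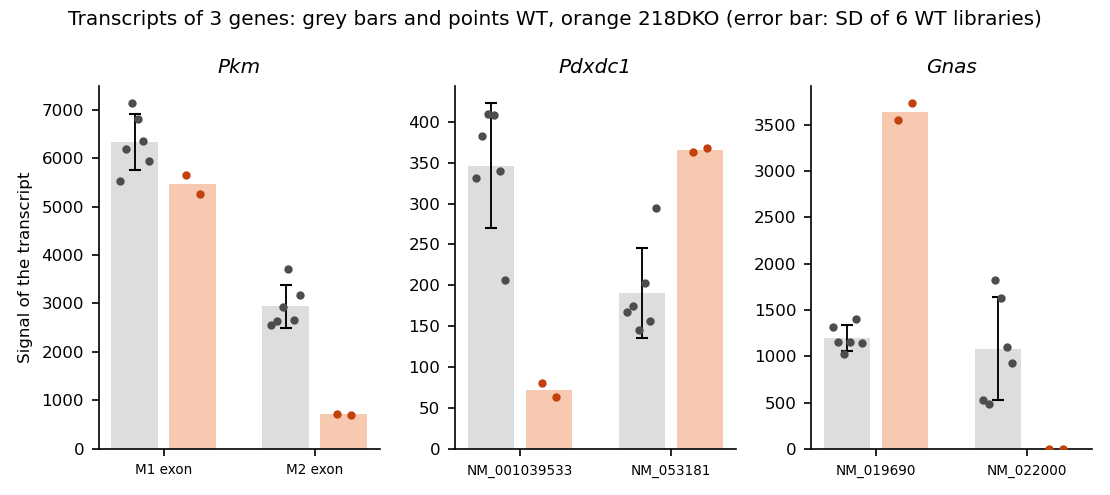
Signal (y, linear axes from 0) of 2 transcripts each of Pkm, Pdxdc1 and Gnas in the 6 WT (grey) and 2 218DKO (orange) libraries; bars are means and error bars the SD of the WT libraries. The M2 transcript of Pkm lies below the WT range in 218DKO, and NM_022000 of Gnas is at 0 in both 218DKO libraries.

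Of the 54 called transcripts 11, in 9 genes, were above 0 in all 8 libraries, with a mean of their genes' other transcripts also above 0, and these were singled out after their values were seen. Besides Pkm they include Pdxdc1, a decarboxylase-like gene. Its transcript NM_001039533 had 206 to 410.1, median 361, in WT and 81.0 and 63.9 in 218DKO and NM_053181, which holds an added coding exon of 230 bases, had 145 to 295, median 171, in WT and 363 and 368 in 218DKO. NM_053181 also has a longer first exon (213 against 107 bases) and a longer last exon (1699 against 687 bases). Which of these differences the shift follows was not tested. The gene's own level was not called, and NM_053181 was called in its share but not in its own signal. NM_001039533 made up 64.3% of the gene in WT and 16.5% in 218DKO libraries, with no overlap. Atp8a1, a phospholipid flippase, had less of NM_009727 (329.8 to 601, median 489, in WT and 187 and 247 in 218DKO; log2 difference -1.14, SE 0.21, adjusted p = 0.028), whereas its other 2 transcripts were not called. For Irak1, a kinase of innate immune receptors, NM_008363 rose (31.1 to 63.5, median 44.9, in WT and 136 and 144 in 218DKO) and NM_001177975 fell (57.8 to 141, median 96.3, in WT and 37.5 and 29.3 in 218DKO). Others were the calcium channel gene Cacna1c, with NM_001159534 at 28.5 to 82.2, median 41.7, in WT and 1.27 and 4.25 in 218DKO, Ss18, of a chromatin remodelling complex, with NM_001161369 at 199 to 261, median 229, in WT and 40.9 and 97.9 in 218DKO, Pus10 and 2900079G21Rik. Of these 11 calls, 2 held in as many as 6 of the 8 fits that left out a library, Pkm and Atp8a1, and the others in 1 to 4.

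Transcripts listed at 0 gave the largest ratios, and for them no fold is given. Gnas, the stimulatory G protein gene with several promoters, had NM_022000 at 485 to 1826 in WT and 0 in both 218DKO libraries, and NM_019690 at 1019.6 to 1404, median 1156, in WT and 3547 and 3731 in 218DKO (3.03-fold, log2 difference 1.61, SE 0.12, adjusted p = 7.3e-04), while the gene as a whole was not called (-0.01). NM_022000 was called in all 8 fits that left out a library, as were the shares in Mrpl48, Dhrs3, Fam13c, Nrf1 and Smox. In Mrpl48 the transcript NR_003559 had 91.7 to 211 in WT and 0 in 218DKO. In Dhrs3 NM_011303 had 15.7 to 26.0 in WT and 0 in 218DKO, and NM_001172424 had 9.45 to 24.8 in WT and 15.5 and 16.7 in 218DKO. Dhrs3 encodes a retinal reductase. The noncoding gene 2700038G22Rik had NR_045040 at 34.7 to 114 in WT and 0 in 218DKO, and NR_045042 at 0 in WT and 56.1 and 67.5 in 218DKO. Across genes with several transcripts, 4947 and 4302 of 12710 transcripts were listed at 0 in 218DKO replicates 1 and 2 and 3508 to 4930 in the WT libraries.

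Transcripts of 8 genes were called in opposite directions. Among these were Gnas, Irak1, 2700038G22Rik, Ankra2, Efna1 and Mon2. In Efna1, the ligand ephrin-A1, NM_010107 had 11.1 to 19.6 in WT and 0 in 218DKO, and NM_001162425 had 0 in WT and 5.41 and 8.63 in 218DKO. Of the 8 genes 1, Ankra2, was called as a whole (0.51).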

How the data were processed

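Polyadenylated RNA of sorted motoneurons was sequenced from unstranded libraries, per the labels' protocols, so overlapping and antisense genes cannot be told apart. The deposited values are a signal, an abundance per gene and transcript that the authors scaled between libraries. How they were scaled is not given in the sources used here. Per the submitters' processing notes, DESeq, bedtools, mm9 and mm10 were used, in roles not named. The values behave as scaled for transcript length, and a gene's value is the sum of its transcripts' values. Depth was estimated from the steps between low values and is approximate.

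Genes and transcripts whose signal averaged 1 or more across the 8 libraries were tested two-sided on log2(signal + 1) with limma 3.58.1 in R 4.3.3, with a prior variance that follows the mean and Benjamini-Hochberg adjustment over all features tested, at 0.05. Transcript ratios used features with a mean of at least 10. Only the 8 libraries entered, with no covariates. The steps were tested on simulated data. The members and gene lists were chosen with earlier results of these data known. Genes were named by rule: per list, up to 4 called members in each direction with a mean signal of at least 10, or the 2 most abundant members where none was called; the 15 largest rises and falls with a mean of at least 50; the 10 most abundant called genes in each direction; the 15 largest changes in transcript ratio; transcripts called in opposite directions; and Slit2 and Slit3. The 15 largest rises and falls were taken only among called genes whose 2 groups did not overlap, so that trait was fixed by the rule. Genes named as not called, and called list members beyond these limits, were added after their values were seen. Gene positions come from GENCODE M21 on GRCm38 (22263 genes by accession, 831 by symbol, 429 not located). Alternatives changed the pseudocount, minimum, scaling, variance model, replicate block, control libraries and single libraries. Floor plate and other samples were not analysed here, and some genes are not reported here.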

Additional observations from a re-analysis of the deposited data

Results flagged for a closer look

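In 7 of the 209 named genes 1 WT library stood apart from the other 5, by a gap above Dixon's 95% critical share of the group's range. Chance gives about 1 in 20 such groups. Library WT replicate 2 was high for the BMP receptor gene Bmpr1a (275.19) and for Fgf12 (275.27), and low for the kinase gene Camkk2 (269.62). Replicate 1 was high for the Polycomb gene Cbx2 (162.61) and the lamin gene Lmnb1 (915.34). Replicate 3 was high for the cell cycle inhibitor gene Cdkn1a (178.41), and replicate 4 low for the thrombospondin gene Thbs1 (2.40).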

How the results depend on the processing

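With 2 218DKO libraries, the number of calls depended on each of them. Leaving out 1 library at a time gave 27 to 797 higher and 70 to 1235 lower genes (523 and 776 with all 8), 64 to 412 higher and 144 to 706 lower transcripts (242 and 454), 11 to 64 higher and 19 to 150 lower transcript ratios (16 and 38) and 1 to 14 calls near the deleted loci (10). The fewest genes and transcripts were called without 218DKO replicate 1, and the most without WT replicate 2. Where a 218DKO library was left out, the lone one was assumed to vary like the WT libraries. The difference between the longest and shortest length groups ranged from 0.08 to 0.12. None of the 184 named genes that were called changed sign under these alternatives. Genes named as not called could: Hnrnpk was at -0.08 against WT replicates 2, 3 and 4 alone and at 0.04 against WT replicates 1, 5 and 6 alone. The cause was not tested for the changes that follow. Sample quality weights gave 1588 higher and 2143 lower genes, 571 and 1024 transcripts, 25 lower ratios and 20 calls near the loci. Without a variance trend 491 genes were lower, and 140 transcripts higher and 278 lower. WT replicates 2, 3 and 4 alone gave 1282 higher and 1170 lower genes, 8 higher and 9 lower ratios; WT replicates 1, 5 and 6 alone gave 985 and 1330 genes and 17 calls near the loci. Ratios also moved with no minimum (35 higher), a higher minimum (6 higher, 12 lower) and a pseudocount of 10 (10 lower). The groups share replicate numbers 1 and 2 alone, and the labels do not say that a number pairs samples. With the replicate number as a block, limma called 120 higher and 94 lower genes, 0 transcripts in either direction (1767 at an unadjusted p under 0.05), 0 ratios (343) and 1 gene near the loci, and 61 of the 184 called named genes kept their call. In 218DKO replicate 1, at 7.45 M reads, signals under 3.94 rest on fewer than 3 reads in a transcript of 2000 bases.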
